A study of Mus musculus with 37 samples.

Results

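The comparison described here asked which liver genes responded differently to 5 mg/kg of HFPO-DA in male and in female breeder mice. HFPO-DA is hexafluoropropylene oxide dimer acid, a short-chain perfluoroalkyl compound used in making fluoropolymers. For each gene the interaction was the log2 fold change in sires (5 mg/kg against vehicle) minus the log2 fold change in dams, so that a value below 0 means a lower response in sires and a value above 0 a higher one. Every autosomal gene with enough counts entered, which gave 12514 of the 20411 autosomal genes on the assay, and the 13004 genes tested in the whole series include those on the sex chromosomes. The contrast used 18 of the 37 mice, namely 5 sires and 5 dams given vehicle and 4 sires and 4 dams given 5 mg/kg, while the remaining 19 mice at 0.1 and 0.5 mg/kg shared the estimate of the spread.

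All mice were Crl:CD1(ICR), an outbred and genetically unmodified stock, and all were dosed daily by oral gavage with HFPO-DA in deionized water or with deionized water alone. The sires were parental males about 6 weeks old at the first dose, and received 84 or 85 doses before and during mating. The dams were parental females about 11 weeks old at the first dose, and received 53 to 65 doses before mating, through pregnancy and to the end of lactation. Sex, reproductive state, age, number of doses and sequencing depth therefore all separated the cohorts, and their shares in any interaction cannot be told apart. Fixed, paraffin-embedded liver was assayed with TempO-Seq, in which pairs of detector oligos are ligated on the target RNA and counted as 1 probe, and several probes can report 1 gene.

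As background, the liver of the mouse is strongly dimorphic. Males secrete growth hormone in pulses and females more continuously, and this pattern, acting through STAT5 and on a background of sex steroids, keeps separate sets of cytochrome P450, sulfotransferase, glutathione transferase and carrier genes high in 1 sex. PPARα, a fatty acid-activated nuclear receptor, binds DNA with RXR and raises genes of peroxisomal and mitochondrial fatty acid oxidation; several perfluoroalkyl acids with a carboxylate group are known activators of it. PPARα ligands are also known to lower plasma protein genes made by the hepatocyte.

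Sequencing was shallower in sires than in dams. Total counts were 2101495 to 9098192 in the sires at 5 mg/kg, 6947711 to 9365709 in the vehicle sires, 9612688 to 11523373 in the vehicle dams and 7952605 to 11262409 in the dams at 5 mg/kg. The share of tested probes with no count was 23 to 40.5% in each sire at 5 mg/kg, against 11.6 to 24.2% in the vehicle sires and 9.52 to 14.6% in the vehicle dams, so a loss of a weakly expressed gene was harder to measure in treated sires. The shallowest of the 18 libraries of the contrast were sires at 5 mg/kg, replicates 3 and 1. The vehicle library of sire replicate 2 stood apart in acute-phase genes, with 56724 CPM of Saa1 (CPM are counts scaled to a common library size) against 98.2 to 262 in the 4 other vehicle sires. All 5 hepatocyte markers were present in every group, and their sum was 10483 to 14565 CPM in vehicle sires, 8298 to 9946 in treated sires, 14566 to 19538 in vehicle dams and 12409.6 to 15599 in treated dams, so that treated and vehicle sires did not overlap. The sum of 5 stellate cell markers had medians of 182 and 356 CPM in vehicle and treated sires and 218 and 438 CPM in vehicle and treated dams, with overlap in both cohorts, and the part of these shifts in the results was not tested. The Y-linked Ddx3y had 31 to 623 counts in sires and at most 2 in dams. Changes in these bulk tissues may reflect fewer cells of a type or less RNA per cell, which cannot be told apart.

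Across the autosomes, 99 genes had a cohort-dependent response at an adjusted p under 0.1 (edgeR quasi-likelihood test, Benjamini-Hochberg adjustment over all probes), or 0.791% of those tested. The response was lower in sires for 73 genes (0.583%) and higher for 26 (0.208%). Most of them were called in 1 cohort. Of the 99 genes, 58 were lowered in sires alone and 12 raised in sires alone, 10 were lowered in dams alone and 5 raised in dams alone, 7 moved the same way in both cohorts by unequal amounts, and 7 moved in opposite directions. Against this stand the calls of each cohort over all genes: 5.27% of genes were raised and 10.7% lowered in sires at 5 mg/kg, and 2.64% were raised and 2.68% lowered in dams. "Alone" means that the other cohort missed the threshold while the interaction passed it. When the other cohort was also required to have an unadjusted p of at least 0.05, 58 of the 70 sires-only genes and 10 of the 15 dams-only genes were left. The split between lower and higher responses moved with the scaling: with total counts in place of composition factors, 47 genes were lower and 31 higher, and the median interaction over all autosomal probes went from -0.13 to 0.01. Without the 2 shallowest treated sires 89 genes were called, of which 48 were among the 99. Among refits without 1 mouse the total moved most without single treated sires, to 181 without replicate 2 and to 198 without replicate 4, and 84 of the 99 were among the calls each time.

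**Figure D1:**
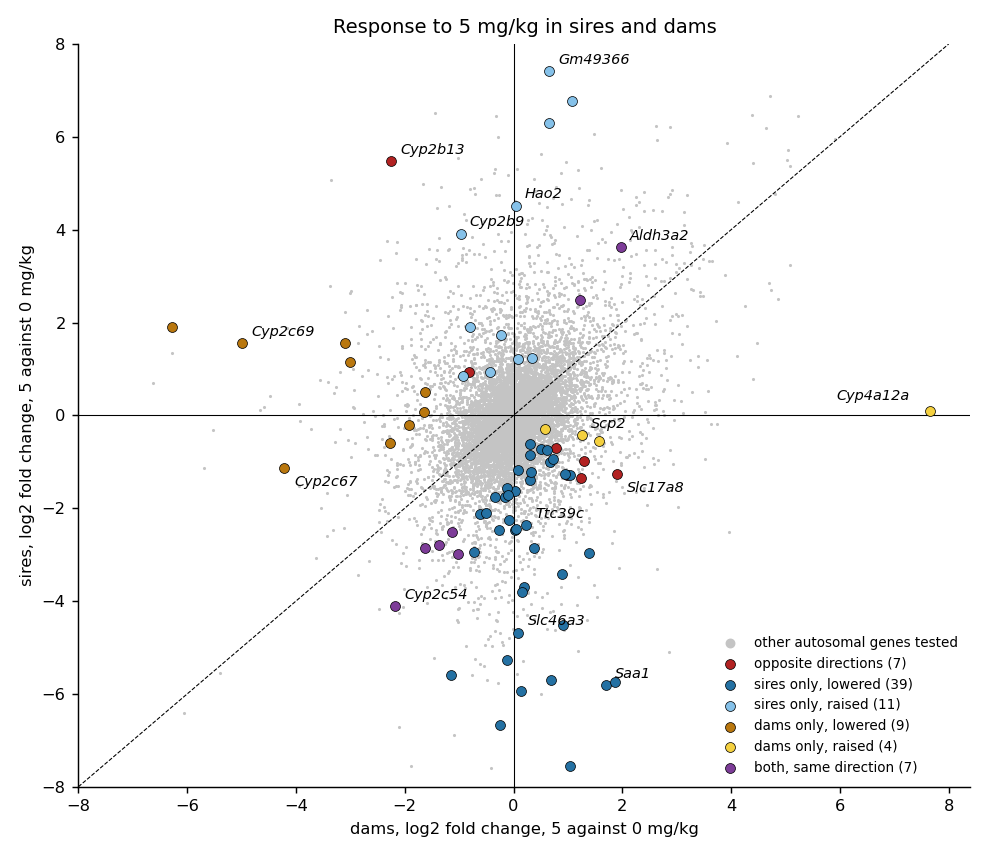
Log2 fold change at 5 mg/kg against vehicle in dams (horizontal axis) and in sires (vertical axis) for autosomal genes, 1 point per gene, with the genes called in the interaction coloured by class and the others in grey. Of the 99 called genes, the 77 with no group at 0 are drawn, and the 39 genes lowered in sires alone that are drawn form the largest coloured group, below the horizontal line at 0. Fitted values of genes with few counts in 1 group, such as Cyp2b13, depend on the prior count used.

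The opposite-direction genes were led by Gstp1 and Cyp2b13, and the 1-cohort genes with a listed promoter were led by Cyp2b9 (raised in sires), Slc46a3 (lowered in sires), Scp2 (raised in dams) and Cyp3a16 (lowered in dams). Their upstream sequences are given from RefSeq (build GRCm38.p6), which listed promoters for 76 of the 99 genes. Each runs 5′ to 3′ on the gene's strand and ends at the base before the listed start site, except that of Gstp1, which ends 73 bases earlier. Capitals mark AGGTCA, the half-site bound by nuclear receptors, or TTCNNNGAA, the core that STAT factors bind, searched on both strands. The Cyp2b13 window lies at chr7:26061245-26061494 on the plus strand and Cyp2b9 at chr7:26173159-26173408 on the plus strand. These neighbouring P450 genes are shown together because both were raised in sires: their windows share 248 of 250 bases (99.2%), the differences being T48C and C104T, with the Cyp2b9 base first and positions counted from 1 at the 5′ end.
Cyp2b13: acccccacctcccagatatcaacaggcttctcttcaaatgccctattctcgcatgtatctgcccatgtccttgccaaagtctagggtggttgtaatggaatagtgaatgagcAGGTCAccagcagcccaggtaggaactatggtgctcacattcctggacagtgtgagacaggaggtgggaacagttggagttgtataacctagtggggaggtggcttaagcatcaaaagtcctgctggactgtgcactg
Cyp2b9: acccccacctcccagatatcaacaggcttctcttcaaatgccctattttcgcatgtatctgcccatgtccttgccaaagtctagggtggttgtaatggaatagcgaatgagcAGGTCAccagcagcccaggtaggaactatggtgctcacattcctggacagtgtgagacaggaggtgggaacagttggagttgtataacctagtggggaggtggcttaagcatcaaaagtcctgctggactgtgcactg
Both hold AGGTCA at the same place, 138 to 133 bases before the start. The Scp2 window (chr4:108118548-108118797, minus strand; this start lies inside the gene as GENCODE annotates it) and the Gstp1 window (chr19:4037986-4038162, minus strand, 177 bases after leaving out 73 that fall in an annotated exon) belong to genes raised in dams, and Scp2 holds AGGTCA 109 to 104 bases before the start.
Scp2: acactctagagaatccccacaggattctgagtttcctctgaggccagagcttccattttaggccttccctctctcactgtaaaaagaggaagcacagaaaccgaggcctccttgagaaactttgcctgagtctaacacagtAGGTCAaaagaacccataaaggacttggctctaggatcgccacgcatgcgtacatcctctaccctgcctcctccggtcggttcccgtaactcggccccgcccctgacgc
Gstp1: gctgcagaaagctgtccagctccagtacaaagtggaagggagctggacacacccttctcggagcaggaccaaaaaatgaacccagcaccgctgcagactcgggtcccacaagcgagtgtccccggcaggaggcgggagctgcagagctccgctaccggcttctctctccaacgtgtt
The Cyp3a16 window (chr5:145469724-145469973, minus strand) held neither motif, and the Slc46a3 window (chr5:147894816-147895065, minus strand) held TTCNNNGAA 238 to 230 bases before the start.
Cyp3a16: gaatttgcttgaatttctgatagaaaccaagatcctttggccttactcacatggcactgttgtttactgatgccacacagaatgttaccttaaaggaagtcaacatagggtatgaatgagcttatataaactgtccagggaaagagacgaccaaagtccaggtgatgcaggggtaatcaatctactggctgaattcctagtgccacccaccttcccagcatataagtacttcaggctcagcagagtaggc
Slc46a3: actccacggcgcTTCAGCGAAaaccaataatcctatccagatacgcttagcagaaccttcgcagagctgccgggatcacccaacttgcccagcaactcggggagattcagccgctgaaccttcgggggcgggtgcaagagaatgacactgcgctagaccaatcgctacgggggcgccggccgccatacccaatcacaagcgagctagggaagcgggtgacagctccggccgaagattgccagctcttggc
Of 32851 listed promoter windows of that table, 14.0% held AGGTCA and 7.02% held TTCNNNGAA, so a match is a description of the letters and not evidence of binding.

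Of the 7 genes that moved in opposite directions, 5 fell in sires and rose in dams (Gstp1, Gstp2, Slc17a8, Alas1 and Cebpb) and 2 rose in sires and fell in dams (Cyp2b13 and Abhd2). Gstp1 encodes the pi-class glutathione transferase, an abundant male-biased detoxifying enzyme of mouse liver (chr19:4035407-4037985). Its level was 2132, 3501, 6145, 6209.7 and 3376 CPM in the 5 vehicle sires and 1869.6, 1368, 2011 and 1819 CPM in the 4 sires at 5 mg/kg. In dams it was 502, 460, 387, 246 and 335 CPM with vehicle and 625, 797, 1088 and 536 CPM at 5 mg/kg. No treated sire reached the lowest vehicle sire, and no treated dam was as low as the highest vehicle dam. The log2 fold change was -1.27 ± 0.25 (SE) in sires and 0.98 ± 0.24 in dams, and the interaction was -2.26 ± 0.34 (adjusted p = 0.000134), called for 2 of 2 probes. The male excess was accordingly 3.47 on the log2 scale with vehicle and 1.21 at 5 mg/kg. Gstp2, its close paralog (both genes lie within 10.6 kb), had 25.8 to 117 CPM in vehicle sires and 20.8 to 29.2 in treated sires, against 2.46 to 8.83 CPM in vehicle dams and 5.95 to 19.7 in treated dams, so both pairs of groups overlapped (interaction -2.59 ± 0.59, adjusted p = 0.0256). Reads of the 2 paralogs may not be fully separable, and their agreement is not independent.

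Cyp2b13, a female-biased P450 of the Cyp2b cluster (chr7:26061497-26096197), had 0, 0.130, 0.134, 0 and 0 CPM in vehicle sires and 4.95, 2.54, 0 and 4.02 CPM in sires at 5 mg/kg. The dams went the other way, from 2.72, 7.58, 37.1, 16.4 and 48.2 CPM to 4.32, 5.75, 5.62 and 3.06 CPM, with the groups overlapping. The vehicle sires held 2 counts in all and the treated sires 70, a depth-scaled ratio of 59.4 (95% interval 15.8 to 500 for counting error only), and the 2.25 log2 fall in dams had an adjusted p of 0.0483. The interaction passed at an adjusted p of 0.000141. Abhd2, an α/β-hydrolase, rose in sires from 62.3, 164, 77.9, 102 and 101 CPM to 127, 160, 174 and 314 CPM, and fell in dams from 434, 449, 535, 392 and 282 CPM to 279, 203, 254 and 214 CPM. Its groups overlapped in sires and did not in dams (interaction 1.75 ± 0.37, adjusted p = 0.0126).

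The remaining opposite genes rested on calls nearer the threshold. Slc17a8, a vesicular glutamate transporter, went from 31.7 to 88.9 CPM in vehicle sires to 13 to 31.1 CPM at 5 mg/kg, and from 2.10 to 19.4 CPM to 15 to 38.5 CPM in dams (interaction -3.18 ± 0.66, adjusted p = 0.0124). Its treated and vehicle groups were apart in sires and overlapped in dams. Alas1 encodes the rate-limiting enzyme of heme synthesis in liver. Its level was 25.1, 79.5, 48.2, 29.6 and 37.7 CPM in vehicle sires, 11.3, 32.9, 30 and 15 in treated sires, 36.8, 11.3, 14.7, 29.6 and 48.0 in vehicle dams and 51.9, 49.4, 103 and 70.4 in treated dams. Treated dams all lay above vehicle dams, while sires overlapped (interaction -2.27 ± 0.49, adjusted p = 0.0165, 2 of 3 probes). Dams at 0.1 mg/kg already averaged 66.2 CPM of Alas1, against 28.1 with vehicle and 68.7 at 5 mg/kg. With the 0.1 mg/kg mice as baseline the Alas1 call was lost. Cebpb, a transcription factor of the acute-phase response and of metabolism, had 275 to 723 CPM in vehicle sires and 176 to 388 in treated sires, against 140 to 272 CPM in vehicle dams and 327 to 417 in treated dams (interaction -1.48 ± 0.36, adjusted p = 0.0475). The Cebpb call was lost without vehicle sire replicate 2 (adjusted p = 0.113), vehicle dam replicate 2 (0.109), treated dam replicates 3 (0.102) or 4 (0.101) or treated sire replicate 3 (0.138). It was also lost with the 0.1 mg/kg mice as baseline. Dams at that dose already averaged 347 CPM of Cebpb, against 220 with vehicle and 378 at 5 mg/kg. The opposite class itself was kept in 17 of 18 refits without 1 mouse for Gstp1, in 14 for Alas1, 13 for Slc17a8, 12 for Cyp2b13, 11 for Abhd2, 8 for Cebpb and 4 for Gstp2.

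**Figure D2:**
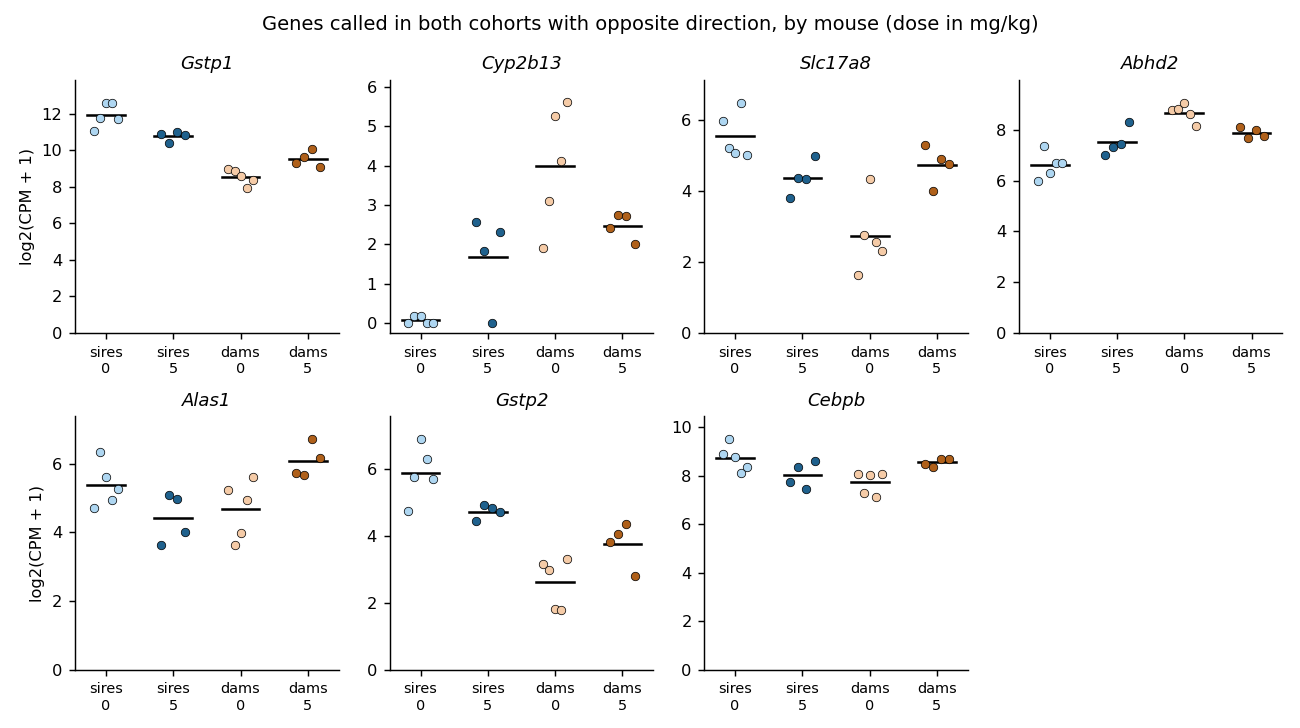
Levels of the 7 genes of opposite direction, as log2(CPM + 1) per mouse (points) with the mean of these values (bars), for vehicle and 5 mg/kg in sires and dams. For Gstp1 the treated and vehicle groups do not overlap in either cohort, falling in sires and rising in dams.

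A block of female-biased genes fell in dams. Cyp3a16, a P450 of the Cyp3a cluster (chr5:145436309-145469723), fell from 381, 454, 233, 302 and 258 CPM to 44.0, 15.2, 40.8 and 51.6 CPM in dams without overlap, while sires held 0.134 to 1.33 CPM with vehicle and 0.331 to 4.33 at 5 mg/kg (interaction 4.66 ± 0.92, adjusted p = 0.00799, or 0.141 without treated sire replicate 4). In Cyp2c69, another P450 high in females, the dams went from 77.8, 52.3, 161, 92.2 and 15.8 CPM to 3.38, 1.55, 0.878 and 4.25 CPM, again without overlap (dams -4.98 ± 0.54, interaction 6.55 ± 1.37, adjusted p = 0.0129, or 0.148 without treated sire replicate 3). Sires held few counts of these genes, while every vehicle dam held 15.8 CPM or more. For Cyp2c69 no vehicle sire exceeded 2 counts and no treated sire 3. The excess of its interaction over the fall in dams rests on these counts.

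The same direction was measured in further genes lowered in dams alone. Cyp3a41a fell in dams from 1937 to 3824 CPM with vehicle to 363 to 936 CPM at 5 mg/kg, and was 150 to 330 CPM in vehicle sires and 149 to 292 CPM in treated sires (interaction 1.71 ± 0.37, adjusted p = 0.0198). A1bg, a plasma immunoglobulin-family protein expressed mainly in female mouse liver, fell in dams from 2134, 1315, 4255, 2644 and 155 CPM to 530, 255, 73.4 and 182 CPM. The groups overlapped through the vehicle dam at 155 CPM (interaction 4.16 ± 0.94, adjusted p = 0.0260). Cyp2c67 fell in dams from 29.1 to 332 CPM to 0.878 to 20.4 CPM, a log2 fold change of -4.22 ± 0.59, with 12.2 to 57.0 CPM in vehicle sires and 7.78 to 25.5 in treated sires, an uncalled difference (interaction 3.09 ± 0.73, adjusted p = 0.0377, or 0.105 without treated dam replicate 2 and 0.113 without vehicle dam replicate 3). Cyp2c67 was on neither sex-biased list, and its vehicle sires and vehicle dams overlapped. Cyp3a41b, Cyp3a41a and Cyp3a16 are near-identical in part, as are the Cyp2c genes, and how their reads were split is uncertain. Other genes lowered in dams alone were on neither sex-biased list: Slc17a3, a renal and hepatic organic anion carrier, went from 19.4 to 39.1 CPM to 5.88 to 11.3 CPM, and Pigb, a mannosyltransferase of GPI anchor synthesis, from 9.27 to 17.8 CPM to 2.98 to 6.30 CPM, both without overlap (adjusted p = 0.0295 and 0.0307, or 0.102 without treated dam replicate 3 and 0.1002 without treated dam replicate 4). Of the 10 dams-only lowered genes, 9 had every treated dam below every vehicle dam, where 4.69% of all autosomal genes did. The class was chosen by this fall, so the share describes it and is no test.

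The genes raised in sires alone were led by genes that vehicle dams already expressed. Cyp2b9, the female-biased neighbour of Cyp2b13 (chr7:26173411-26210661), rose in sires from 2.88, 1.3, 0.134, 4.65 and 5.54 CPM to 70.5, 34.6, 23.6 and 45.6 CPM. In dams it was 136, 157, 109, 204 and 212 CPM with vehicle and 85.0, 77.2, 82.2 and 89.2 CPM at 5 mg/kg, lower in each treated dam but with an adjusted p of 0.233. The log2 fold change in sires was 3.91 ± 0.44 (15.1-fold) and the interaction 4.89 ± 0.60 (adjusted p = 3.06e-06). The excess in dams over sires was 5.82 on the log2 scale with vehicle and 0.93 at 5 mg/kg. Hao2, a peroxisomal 2-hydroxy acid oxidase, rose from 0.240, 0.259, 0, 2.92 and 0.142 CPM in vehicle sires to 0.472, 17.1, 15.8 and 32.3 CPM, with 35.5 to 121 CPM in vehicle dams and 73.2 to 113 in treated dams (interaction 4.48 ± 0.86, adjusted p = 0.00507, 2 of 2 probes). The treated sire at 0.472 CPM lay within the vehicle range and the other 3 lay above it.

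Acot3, a peroxisomal acyl-CoA thioesterase and PPARα target, rose in sires from 0.240, 0.908, 0.268, 0.133 and 0 CPM to 11.8, 37.3, 24.4 and 29.7 CPM, and the gene model Gm49366 from 0.120, 0.259, 0.134, 0 and 0 CPM to 23.6, 18, 21.4 and 18.1 CPM. Vehicle dams already held 13.7 to 91.0 CPM of Acot3 and 12.7 to 44.1 CPM of Gm49366, and treated dams 46.5 to 99.6 and 30.3 to 55.6 CPM. The 2 annotated genes overlap on the plus strand of chromosome 12 (84052144 to 84060402 and 84038935 to 84058613), so their probes may report shared transcripts. The interactions were 5.65 ± 1.16 for Acot3 (adjusted p = 0.0106) and 6.76 ± 1.06 for Gm49366 (adjusted p = 0.000172), with at most 2 Gm49366 counts in any vehicle sire. Cyp2a22, a further P450, rose in sires from at most 0.240 CPM to 14.6, 13.3, 14.6 and 9.27 CPM, and ranged in dams from 0.410 to 54.6 CPM with vehicle and 17.1 to 82.6 at 5 mg/kg (interaction 5.68 ± 1.29, adjusted p = 0.0256). Acss3, a mitochondrial acyl-CoA synthetase, and Cbr1, a carbonyl reductase, rose more modestly: Acss3 from 6.82 to 13.6 CPM to 20.3 to 39.0 CPM in sires, with 39.5 to 75.7 CPM in all dams (adjusted p = 0.0447, or 0.117 without treated dam replicate 2 and 0.101 without vehicle dam replicate 4), and Cbr1 from 71.3 to 95 CPM to 135 to 270 CPM, with 148 to 206 CPM in all dams (adjusted p = 0.0260, or 0.122 without treated sire replicate 3). Ift46, an intraflagellar transport subunit, was 30.9 to 60.2 CPM in vehicle sires and 46.0 to 153 in treated sires with overlap (adjusted p = 0.0618). Dams averaged 67.7 CPM of Ift46 with vehicle and 35.6 CPM at 5 mg/kg, with overlap. That fall was not called in dams but entered the interaction. The Ift46 call was lost in 7 of 18 refits without 1 mouse, most of all without treated sire replicate 3 (0.244). In 9 of the 12 genes raised in sires alone, every vehicle sire lay below every vehicle dam, where 2.61% of all autosomal genes did, and in 8 of the 12 every treated sire lay above every vehicle sire, where 2.95% did. The same values entered the interaction and the calls that chose these genes, so both shares describe the class and test nothing.

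Genes raised in dams alone were headed by Cyp4a12a, an arachidonic acid and fatty acid ω-hydroxylase that is androgen-dependent and male-biased in mouse liver and kidney (chr4:115299046-115332815). Sires held 400, 247, 703, 485 and 393 CPM with vehicle and 497, 529, 471 and 418 CPM at 5 mg/kg. Dams held 0.419, 1.43, 2.43, 0.492 and 0.0833 CPM with vehicle and 270, 231, 210 and 79.1 CPM at 5 mg/kg. Each treated dam was above each vehicle dam, and 3 of the 4 lay below the lowest sire. This was a log2 fold change of 7.65 ± 0.68 (202-fold) against 0.10 ± 0.50 in sires, and the interaction of -7.55 ± 0.84 had the smallest adjusted p of all autosomal genes (5.51e-07, 2 of 2 probes). Scp2, the sterol carrier protein and peroxisomal thiolase gene (chr4:108043839-108144998), rose in dams from 161, 117, 193, 144 and 160 CPM to 353, 352, 444 and 332 CPM. Sires held 1634, 1226, 1742, 1536 and 1123 CPM with vehicle and 1043, 1411, 697 and 1199 CPM at 5 mg/kg, an uncalled difference of -0.42 ± 0.18. The interaction was -1.67 ± 0.25 (adjusted p = 0.000134) and was called for 3 of 4 probes. Ces1f, a liver carboxylesterase, rose in dams from 212 to 298 CPM to 359 to 433 CPM with 200 to 370 CPM in all sires (interaction -0.87 ± 0.20, adjusted p = 0.0287), and the histone gene Hist1h2bg from 4.61 to 7.66 CPM to 14.5 to 24.9 CPM with 4.50 to 16.2 CPM in all sires (adjusted p = 0.0850, lost in 11 of 18 refits without 1 mouse, up to 0.189 without treated dam replicate 2). In all 5 dams-only raised genes, treated dams lay above vehicle dams (4.72% of all autosomal genes), a rise by which the class was itself chosen.

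The largest class comprised the 58 genes lowered in sires alone. Slc46a3, a lysosomal solute carrier (chr5:147878437-147894815), was 16, 17.3, 8.69, 10.6 and 9.80 CPM in vehicle sires and 0, 1.21, 0 and 0.155 CPM at 5 mg/kg, while dams held 8.75 to 23.3 CPM with vehicle and 13 to 24.4 CPM at 5 mg/kg (sires -4.68 ± 0.55, dams 0.09 ± 0.38, interaction -4.77 ± 0.66, adjusted p = 4.76e-05). Treated sire replicate 2 held 11 of the counts of the 4 treated sires, and without it the interaction was -7.26 ± 0.84. Ttc39c, a tetratricopeptide repeat gene, fell in sires from 585, 408, 539, 370 and 352 CPM to 82.1, 115, 48.0 and 103 CPM, near the level of the dams (62.7 to 144 CPM in all 9), with an interaction of -2.60 ± 0.37 (adjusted p = 5.3e-05). Il1r1, the signalling receptor for interleukin-1, had the same form: 345, 658, 530, 264 and 354 CPM in vehicle sires, 72.2, 72.8, 53.3 and 113 CPM in treated sires and 53.6 to 151 CPM in dams of either group (interaction -2.49 ± 0.48, adjusted p = 0.00626, 2 of 2 probes). The Il1r1 call was lost with the 0.1 mg/kg mice as baseline, whose means were 271 CPM in sires and 187 in dams. For Obp2a, a male-biased lipocalin, vehicle sires held 16.8, 12.5, 10.0, 3.46 and 15.5 CPM and the treated sires 1 count in all, a ratio of 263 (95% interval 47.0 to 10412 for counting error only), and no dam exceeded 1.4 CPM (adjusted p = 0.00859). Single vehicle dams held at most 8 counts of Obp2a, so a fall in dams could hardly be measured. Every vehicle sire lay above every vehicle dam in 11 of the 58 genes (1.59% of all autosomal genes), and every treated sire lay below every vehicle sire in 45 of them (5.11% of all). These mice also gave the calls that define the class, so the 2 counts are descriptions and no separate support.

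**Figure D3:**
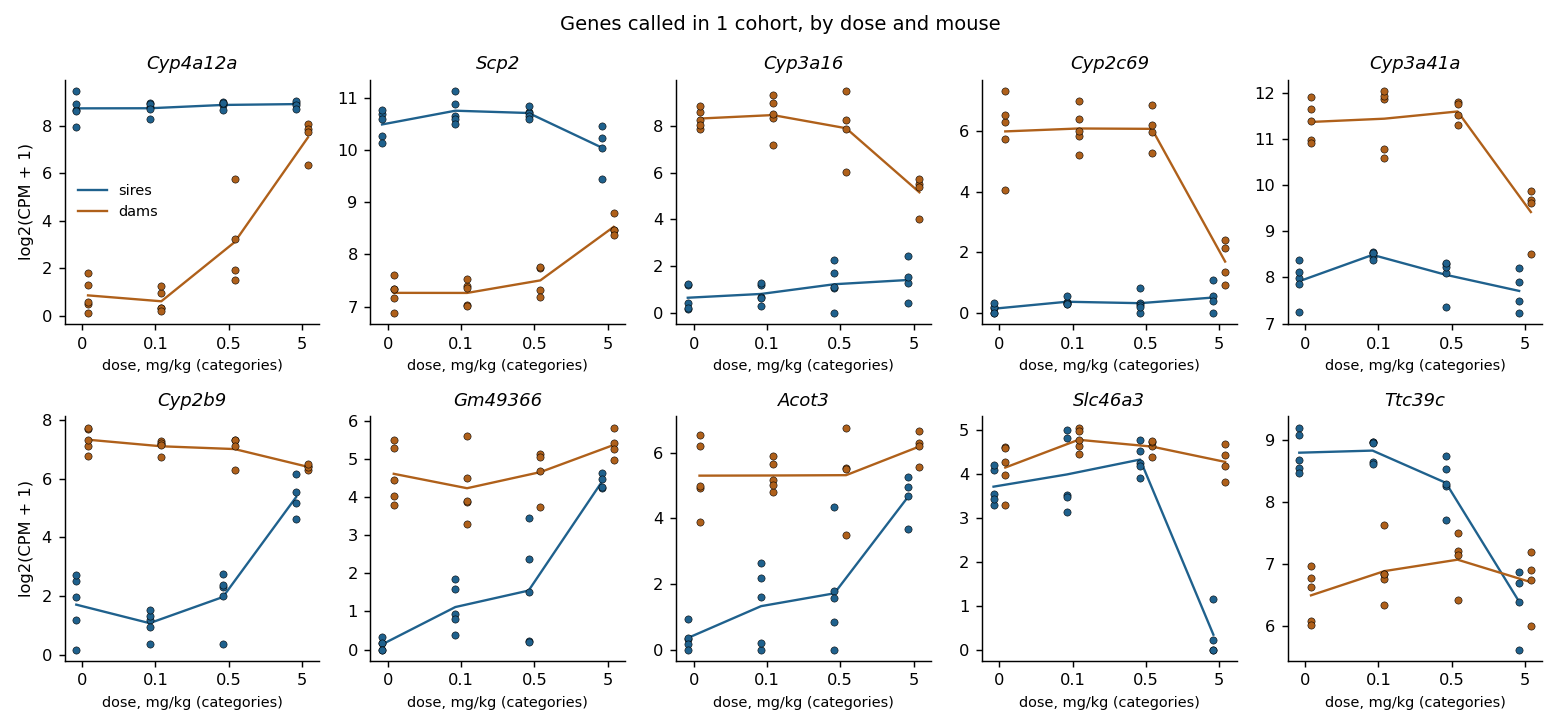
Levels of 10 genes of the interaction as log2(CPM + 1) per mouse (points) over the doses (0, 0.1 and 0.5 and the top dose of 5 mg/kg), with lines joining the means of these values in sires and in dams, on axes that do not all start at 0. Cyp4a12a, Gm49366 and Acot3 already differ from vehicle in 1 cohort at 0.5 mg/kg, whereas Cyp2b9, Slc46a3 and Cyp2c69 separate at 5 mg/kg.

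Low counts limited part of this class. In 19 of the 58 genes the 4 treated sires had no count at all, with mean levels of 1.37 to 8.74 CPM in vehicle sires, and with 3 counts per library as the floor these genes were at least 2.09- to 13.3-fold lower. Over all tested autosomal probes, 8.90% had no count in any sire at 5 mg/kg, against 2.15% in vehicle sires, 1% in vehicle dams and 2.14% in treated dams, and without the genes at 0 in every treated sire 79 of the 99 genes and 51 of the 70 sires-only genes remained. By the called probe, Itgal, the leukocyte integrin αL, was at least 10.8-fold lower, Casd1, a sialic acid O-acetyltransferase, at least 8.20-fold and Fancc, a Fanconi anemia DNA repair protein, at least 4.57-fold, with 0.749 to 11.7, 2.04 to 9.03 and 0.787 to 7.75 CPM in dams (adjusted p = 0.000765, 0.00193 and 0.00859). For Fancc the dams rose without overlap, from 0.787 to 2.10 CPM with vehicle to 3.66 to 7.75 CPM at 5 mg/kg. That rise was not called in dams but entered the interaction. With the probes of a gene summed, the calls of Casd1 and Fancc were lost, so their falls hold for 1 probe and not for the gene as a whole. After thinning every library to the smallest total, the calls of Itgal, Casd1 and Fancc were all lost. Pcp4l1, a small calmodulin-regulating protein, fell from 2.54 to 13.2 CPM to 1 count among the treated sires (ratio 134, 95% interval 23.8 to 5310, counting error only), with 4.47 to 14.8 CPM in dams (adjusted p = 0.000300). The summed T cell markers (Cd3e, Cd3d and Cd2) were 4.92 to 16.1 CPM in vehicle sires, 0 to 3.09 CPM in treated sires with Cd2 at 0, 6.55 to 12.9 CPM in vehicle dams and 2.63 to 10.2 CPM in treated dams. Cd3d was itself among the genes lowered in sires alone, and the part of T cells in the Itgal result was not tested.

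Further named genes that fell in sires alone came from several lists. Apoa1, the main apolipoprotein of high-density lipoprotein, fell from 3194, 2389.8, 2545, 2378 and 2494 CPM to 1305, 1657, 1195 and 1559 CPM in sires, and was 1196 to 1930.2 CPM in vehicle dams and 1452 to 2198 CPM in treated dams (interaction -1.17 ± 0.23, adjusted p = 0.00859). Apom, another lipoprotein component, fell from 20.5 to 45.1 CPM to 2.87 to 11.6 CPM in sires (adjusted p = 0.0736). Dams had 40.8 to 53.4 CPM of Apom with vehicle and 21.5 to 44.9 CPM at 5 mg/kg, a smaller, uncalled fall with overlap. Tat, the tyrosine aminotransferase that starts tyrosine breakdown, fell from 37.1, 55.9, 44.1, 7.04 and 57.3 CPM to 3.54, 5.85, 8.63 and 4.64 CPM, with 11.1 to 38.5 CPM in dams. It overlapped through 1 vehicle sire (interaction -3.23 ± 0.69, adjusted p = 0.0157). Sds, the serine dehydratase, fell from 22.9 to 64.9 CPM to 5.90 to 8.72 CPM, with 18.5 to 65.1 CPM in dams (adjusted p = 0.0678). Akr1d1, the 5β-reductase of steroid and bile acid metabolism, fell from 55.5 to 116 CPM to 11.1 to 26.6 CPM in sires (adjusted p = 0.0252, or 0.101 without treated dam replicate 4). Dams had 124 to 159 CPM of Akr1d1 with vehicle and 43.7 to 134 CPM at 5 mg/kg, again a smaller, uncalled fall with overlap. Herpud1, of the endoplasmic reticulum stress response, fell from 180 to 317 CPM to 36.8 to 108 CPM, with 97.6 to 174 CPM in dams (adjusted p = 0.0240). Its call and that of Tat were lost with the 0.1 mg/kg mice as baseline. At that dose Herpud1 averaged 142 CPM in sires and 194 in dams. Cyp2e1, the pericentral ethanol-oxidizing P450, fell from 727 to 956 CPM to 239 to 548 CPM in sires and was 348 to 1059 CPM in dams. Its adjusted p of 0.09996 lay at the threshold. Per1, a clock repressor, had 0.930 to 4.41 CPM in vehicle sires and 1 count among treated sires (ratio 63.7, 95% interval 11.2 to 2539, counting error only, adjusted p = 0.0643). Without 1 mouse at a time the call was lost in 10 of 18 refits for Apom (up to 0.227, without treated dam replicate 4), 7 for Sds (up to 0.207, without the same dam), 5 for Per1 (up to 0.155, without treated dam replicate 3) and 14 for Cyp2e1 (up to 0.215, without that dam).

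Acute-phase and complement genes among the sires-only falls were called with the help of single libraries. Saa1, serum amyloid A, had 98.2, 56724, 262, 138 and 199 CPM in vehicle sires, 224, 126, 113 and 357 CPM in treated sires, 164, 343, 161, 173 and 358 CPM in vehicle dams and 112, 2271, 479 and 241 CPM in treated dams. The fitted interaction of -7.50 ± 1.85 (adjusted p = 0.0517) became -1.47 ± 1.2 (adjusted p = 0.771) without vehicle sire replicate 2. That same mouse was the highest vehicle sire for haptoglobin (Hp, 3402 CPM against 367 to 603), the acid glycoprotein Orm1 (1866 CPM against 168 to 261), complement C4b (253 CPM against 76.6 to 97.4) and complement C8a (1213 CPM against 612 to 1005). Without it the adjusted p of the interaction went from 0.0787 to 0.311 for Hp, 0.0912 to 0.379 for Orm1, 0.0912 to 0.242 for C4b and 0.0643 to 0.116 for C8a. Without treated dam replicate 2, also high in Saa1, these became 0.170 for Saa1, 0.254 for Hp, 0.205 for Orm1, 0.281 for C4b and 0.254 for C8a. Counting all 18 refits, the call was lost in 3 for Saa1, 7 for C8a, 9 for Hp, 9 for C4b and 11 for Orm1. The levels of C8a, Orm1 and C4b in treated sires were nonetheless below those of all vehicle sires, at 150 to 396, 46.5 to 91.3 and 27.8 to 51.0 CPM.

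**Figure D4:**
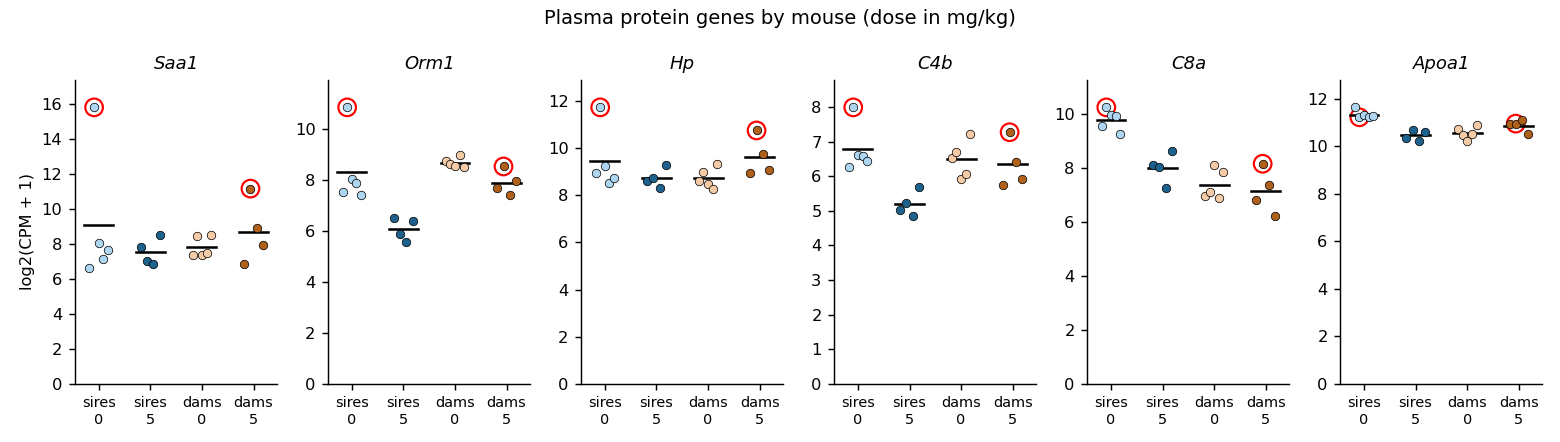
Levels of 6 plasma protein genes as log2(CPM + 1) per mouse in the 4 groups, with the mean of these values as bars and 2 libraries ringed in red, vehicle sire replicate 2 and treated dam replicate 2. For Saa1 the ringed vehicle sire has 56724 CPM and the other vehicle sires at most 262.

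For 7 genes both cohorts moved the same way and by unequal amounts, each more in sires. Aldh3a2, a fatty aldehyde dehydrogenase and PPARα target, rose from 339 to 848 CPM to 6827 to 8555 CPM in sires (12.3-fold) and from 802 to 1634 CPM to 3578 to 5294 CPM in dams (3.94-fold), an interaction of 1.65 ± 0.33 (adjusted p = 0.00873). Mgll, monoglyceride lipase, rose 5.59-fold in sires, from 61.6 to 114 CPM to 327 to 516 CPM, and 2.35-fold in dams, from 64.5 to 84.0 CPM to 146 to 216 CPM (adjusted p = 0.0256). The other 5 fell in both cohorts. Sult1a1, a phenol sulfotransferase, fell 7.90-fold in sires, from 160 to 392 CPM to 18.8 to 55.3, and 2.03-fold in dams, from 764 to 1188 CPM to 304 to 671 (adjusted p = 0.00376). Hsd11b1, which regenerates active glucocorticoid, fell 7.26-fold and 3.09-fold, and Prodh, of proline breakdown, 6.93-fold and 2.59-fold (adjusted p = 0.0307 and 0.0620). Both calls were lost without treated sire replicate 3 (0.104 and 0.138) and without treated dam replicate 4 (0.128 and 0.223), and that of Prodh in 3 further refits. Among P450 genes, Cyp2c54 fell 17.3-fold in sires and 4.53-fold in dams, and Cyp2c29 5.73-fold and 2.20-fold (adjusted p = 0.0620 and 0.0165), the call of Cyp2c54 being lost in 9 of 18 refits without 1 mouse (up to 0.156, without treated sire replicate 3) and its interaction going from -1.93 to -2.98 without treated sire replicate 2. All 7 had treated and vehicle mice apart in both cohorts, in both of which the class required a call. Of all autosomal genes, treated mice lay apart below vehicle mice in 5.11% in sires and 4.69% in dams. They lay apart above in 2.95% and 4.72%.

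Gene lists gave the wider pathways. Their counts stand beside 5.27% of all autosomal genes raised and 10.7% lowered in sires, and 2.64% raised and 2.68% lowered in dams. Of 27 female-biased liver genes tested, 10 (37%, against 0.791% of all genes) had a higher response in sires, among them A1bg, Acot3, Cyp2b13, Cyp2b9, Cyp2c69, Cyp3a16, Cyp3a41a, Cyp3a41b and Hao2. None had a lower one (edgeR; 17 of the list had an unadjusted p under 0.05 in either direction, and DESeq2 called 11 and limma-voom 2). Single vehicle sires held at most 2 counts of Cyp2c69, 1 of Cyp2b13 and 10 of Cyp3a16, so a fall in sires could hardly be measured. Where dams fell, the direction of the interaction was largely fixed in advance for such genes, and the 37% is a description only. In sires 6 of the 27 rose and 3 fell, and in dams 12 fell, with median log2 fold changes of 0.70 in sires and -1.09 in dams, beside -0.12 and -0.02 over all autosomal genes. Of 24 male-biased genes, Cyp4a12a and Gstp1 were called lower in sires. Here 1 rose and 15 fell in sires and 3 rose and 4 fell in dams, with medians of -1.25 and -0.21. These lists contain cytochrome P450 paralogs whose reads may be shared, and several of their members were known from earlier results of these data.

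Many genes of the PPARα lists rose in both cohorts, and the interaction was called in 5% of the peroxisomal list, 4.76% of other PPARα targets and none of the mitochondrial list, against 0.791% of all genes. Over all autosomal genes 5.27% rose in sires and 2.64% in dams, and 10.7% and 2.68% fell, so more calls in sires are not particular to a list. In mitochondrial fatty acid oxidation 17 of 29 genes rose in sires and 16 in dams, with medians of 0.62 and 0.86, and edgeR called none of them in the interaction (2 had an unadjusted p under 0.05, and DESeq2 and limma-voom called none). In peroxisomal fatty acid oxidation 21 of 40 rose in sires and 16 in dams, with medians of 0.63 and 0.63, and Acot3 (higher in sires) and Scp2 (lower) were called, while 13 had an unadjusted p under 0.05. Among 42 other PPARα targets 29 rose in sires and 27 in dams, with medians of 2.47 and 1.87, and Aldh3a2 and Mgll were called, while 11 had an unadjusted p under 0.05. Of 35 acute-phase and plasma protein genes 28 fell in sires and 17 in dams, with medians of -1.28 and -0.69, and Hp, Orm1, Saa1 and Saa2 were called, the library dependence of which is given above. Of 50 urea cycle and amino acid genes 32 fell in sires and 17 in dams (medians -0.86 and -0.48), with Prodh, Sds and Tat called, and of 33 P450 enzymes of xenobiotic metabolism 14 fell in sires and 12 in dams (medians -1.02 and -0.91), with 4 called. Against the 0.791% of all genes, the interaction was called in 6.25% of complement genes (C4b and C8a of 32), 6.67% of lipoprotein genes (Apoa1 and Apom of 30), 6.25% of conjugation enzymes (Ces1f, Gstp2 and Sult1a1 of 48) and 8.7% of growth hormone and sex steroid signalling genes (Akr1d1 and Hsd11b1 of 23). In the list of Wnt-dependent pericentral and zonation genes the interaction was called in 10% (Cyp2e1 and Sds of 20), both calls being lost in some refits without 1 mouse. Cholesterol synthesis, coagulation, bile acids, cell cycle and oxidative phosphorylation held no called gene, and each remaining list held at most 1.

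**Figure D5:**
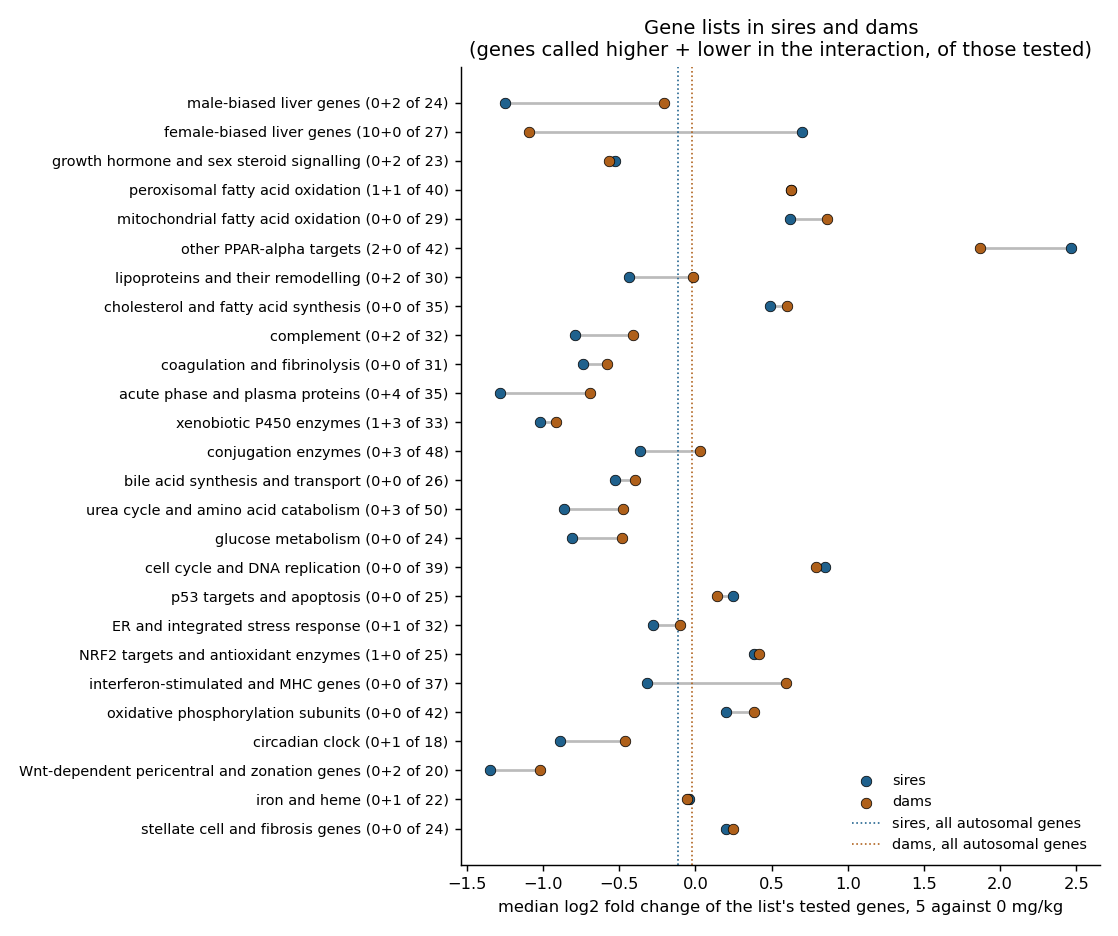
Median log2 fold change at 5 mg/kg against vehicle for each of 26 gene lists in sires and in dams, with dotted lines at the medians of all autosomal genes (-0.12 in sires and -0.02 in dams). The female-biased list lies at 0.70 in sires and -1.09 in dams, on opposite sides of 0.

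Few genes responded at the lower doses. At 0.5 mg/kg, 0.831% of genes were called in sires and 0.144% in dams, and 1 gene, Cyp4a12a, was called in the interaction of 0.5 mg/kg against vehicle (0.00799%) and of 0.5 against 0.1 mg/kg (0.00799%). Cyp4a12a in dams averaged 0.972 CPM with vehicle, 0.588 at 0.1 mg/kg, 16.4 at 0.5 mg/kg and 197 at 5 mg/kg, with 1.79, 8.41, 52.6 and 2.76 CPM in the 4 dams at 0.5 mg/kg, so 1 of these dams carried most of the mean. Its log2 fold change in dams at 0.5 mg/kg was 4.08 (adjusted p = 0.000269). In sires, Gm49366 averaged 0.103, 1.32, 3.23 and 20.3 CPM and Acot3 0.310, 2.19, 4.89 and 25.8 CPM over the 4 doses, and both were called in sires at 0.5 mg/kg (adjusted p = 0.00201 and 0.0290), without a called interaction there (0.196 and 0.632). The 5 sires at 0.5 mg/kg held 0.161, 4.15, 1.85, 9.85 and 0.154 CPM of Gm49366 and 0.806, 0, 2.47, 19.2 and 2 CPM of Acot3, with the same sire highest in both. In the contrast of 0.5 against 0.1 mg/kg, whose mice the main contrast did not use, 63 of the 99 (63.6%) had the same sign, against 51.8% of all genes.

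The mice at 0.1 mg/kg also gave the cohort difference in animals that the contrast did not use, though they shared its count filter and its estimate of the spread. There 6.15% of autosomal genes differed between sires and dams, and 32 of the 99 interaction genes did (32.3%). Of these 32, the 10 genes higher in sires at 0.1 mg/kg all had a lower response in sires at 5 mg/kg, and of the 22 higher in dams 17 had a higher response in sires and 5 a lower one. Sires at 0.1 mg/kg held at most 2 counts of Cyp2c69 and 0 of Cyp2b13, and dams there at most 4 of Obp2a. A fall in the cohort near 0 could hardly be measured for such genes. The direction was thus largely fixed in advance for them, and these counts are descriptions only. Over all genes taken by their most counted probe, 65.2% of the 345 higher in sires at 0.1 mg/kg had an interaction below 0 and 49.4% of the 344 higher in dams had one above 0. The gap between the cohorts was smaller at 5 mg/kg than with vehicle in 38 of the 99 genes (38.4%), against 39.9% of all genes. This last count used the mice of the contrast itself.

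Some of the 99 genes lie side by side. With gaps of up to 500 kb, 32 genes formed 14 groups of neighbours, 9 of 1 direction and 5 of both. Among the former, Cyp3a16, Cyp3a41b and Cyp3a41a on chromosome 5, Cyp2b13 and Cyp2b9 on chromosome 7 and Gm49366 and Acot3 on chromosome 12 had a higher response in sires in every member, and Gstp1 and Gstp2 on chromosome 19 and Saa1, Saa2 and Ldha on chromosome 7 a lower one. Among the latter were the Cyp2c genes of chromosome 19, Cyp2c67 and Cyp2c69 having a higher response in sires and Cyp2c29 and Cyp2c54 a lower one. Members of such families have related sequences and are not independent counts.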

How the data were processed

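Livers of 37 mice were analysed in 8 groups of cohort and dose (vehicle and the doses 0.1, 0.5 and then 5 mg/kg), taken from the labels. The authors extracted reads per TempO-Seq probe and deposited raw counts for 30146 probes, having left out 3 of 40 mice of low depth or few probes. The submitters' processing notes name bcl2fastq 2.17.1.14 and Bowtie. The probes carry a gene symbol and no coordinates, and symbols were placed on GRCm38 by GENCODE. Probe reads carry no molecular identifiers, so counting intervals and floors cover counting error only.

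All 37 mice entered 1 edgeR 4.0.16 quasi-likelihood fit in R 4.3.3 (TMM factors, filterByExpr over the groups, 18570 probes), with Benjamini-Hochberg adjustment over all probes and a threshold of 0.1. A gene was called when at least 1 probe was, and its values are those of the called probe with the smallest interaction p. Called genes were classed by the adjusted p in each cohort. Levels are CPM with TMM factors, and errors of log2 values are standard errors. Named genes were the first by interaction p in each class with a group mean of at least 5 CPM, plus up to 3 called genes of each list, of which 1 item is not reported here. The alternatives used DESeq2 1.42.0 and limma 3.58.1, and the fits were tested on simulated data. Labels describe separate animals. Members and lists were chosen with earlier results of these data known, and the comparisons at 0.1 and 0.5 mg/kg were added after the interaction had been seen.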

Additional observations from a re-analysis of the deposited data

Results flagged for a closer look

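The response to 5 mg/kg was called different between sires and dams, by the test of the interaction itself, in each of the 54 genes of the naming rule described above, and these are listed with the adjusted p of that interaction (edgeR quasi-likelihood test, Benjamini-Hochberg adjustment). The rule took only genes called in this test, so a pass of all 54 was fixed in advance and is no separate result. The genes that moved in opposite directions had adjusted p-values of 0.000134 for Gstp1, 0.000141 for Cyp2b13, 0.0124 for Slc17a8, 0.0126 for Abhd2, 0.0165 for Alas1, 0.0256 for Gstp2 and 0.0475 for Cebpb. Among the genes lowered in sires alone the values were 4.76e-05 for Slc46a3, 5.3e-05 for Ttc39c, 0.0002996 for Pcp4l1, 0.000765 for Itgal, 0.00193 for Casd1, 0.00626 for Il1r1, 0.00859 for Obp2a, 0.00859 for Fancc, 0.00859 for Apoa1, 0.0157 for Tat, 0.024 for Herpud1, 0.0252 for Akr1d1, 0.0517 for Saa1, 0.0643 for Per1, 0.0643 for C8a, 0.0678 for Sds, 0.0736 for Apom, 0.0787 for Hp, 0.0912 for C4b, 0.0912 for Orm1 and 0.09996 for Cyp2e1. Among those raised in sires alone they were 3.06e-06 for Cyp2b9, 0.000172 for Gm49366, 0.00507 for Hao2, 0.0106 for Acot3, 0.0256 for Cyp2a22, 0.026 for Cbr1, 0.0447 for Acss3 and 0.0618 for Ift46. For the genes lowered in dams alone they were 0.00799 for Cyp3a16, 0.0129 for Cyp2c69, 0.0198 for Cyp3a41a, 0.026 for A1bg, 0.0295 for Slc17a3, 0.0307 for Pigb and 0.0377 for Cyp2c67. For the genes raised in dams alone they were 5.51e-07 for Cyp4a12a, 0.000134 for Scp2, 0.0287 for Ces1f and 0.085 for Hist1h2bg. For the genes that moved the same way in both cohorts they were 0.00376 for Sult1a1, 0.00873 for Aldh3a2, 0.0165 for Cyp2c29, 0.0256 for Mgll, 0.0307 for Hsd11b1, 0.062 for Cyp2c54 and 0.062 for Prodh. 

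In 24 of 217 groups of 4 or 5 mice (11.1%), 1 mouse lay apart from the others of its group by more than the 95% critical value of Dixon's test. For normally distributed values chance gives about 1 in 20, a rate that need not hold for CPM. A group with 1 count in all is always flagged, as for Pcp4l1, Obp2a and Per1 in treated sires, so the 2 rates cannot be compared. Of the vehicle sires these were Pcp4l1 in vehicle sire replicate 4 (13.2 CPM), Hao2 in vehicle sire replicate 4 (2.92 CPM), Apoa1 in vehicle sire replicate 1 (3194 CPM), Saa1 in vehicle sire replicate 2 (56724 CPM), Hp in vehicle sire replicate 2 (3402 CPM), C4b in vehicle sire replicate 2 (253 CPM) and Orm1 in vehicle sire replicate 2 (1866 CPM). Of the sires at 5 mg/kg they were Slc46a3 in sire at 5 mg/kg replicate 2 (1.21 CPM), Pcp4l1 in sire at 5 mg/kg replicate 4 (0.155 CPM), Obp2a in sire at 5 mg/kg replicate 3 (0.375 CPM), Pigb in sire at 5 mg/kg replicate 1 (20.3 CPM), Ift46 in sire at 5 mg/kg replicate 3 (153 CPM), Cyp2c54 in sire at 5 mg/kg replicate 2 (420 CPM) and Per1 in sire at 5 mg/kg replicate 2 (0.11 CPM). Of the vehicle dams they were Hao2 in vehicle dam replicate 5 (35.5 CPM), Slc17a8 in vehicle dam replicate 3 (19.4 CPM) and Prodh in vehicle dam replicate 1 (152 CPM). Of the dams at 5 mg/kg they were Il1r1 in dam at 5 mg/kg replicate 4 (151 CPM), Cbr1 in dam at 5 mg/kg replicate 1 (201 CPM), Ces1f in dam at 5 mg/kg replicate 1 (433 CPM), Pigb in dam at 5 mg/kg replicate 1 (6.3 CPM), Saa1 in dam at 5 mg/kg replicate 2 (2271 CPM), Per1 in dam at 5 mg/kg replicate 3 (4.3 CPM) and Sds in dam at 5 mg/kg replicate 4 (53.2 CPM). Vehicle sire replicate 2 carried 4 of these, all in acute-phase and complement genes.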

How the results depend on the processing

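The number of interaction genes, 99 as reported, was 221 with DESeq2 (94 of the 99 among them), 64 with the 18 mice alone, 58 at an adjusted p under 0.05, 53 after thinning every library to the smallest total and 33 with limma-voom and a weight per group (28 of the 99 among them). Sires-only genes, 70 as reported, were 163 with DESeq2, 46 with the probes of a gene summed, 44 with the 18 mice alone, 43 with the 0.1 mg/kg mice as baseline, 36 at 0.05, 29 after thinning and 17 with limma-voom. Dams-only genes, 15 as reported, were 23 with DESeq2, 9 with the 18 mice alone and 6 with limma-voom. Opposite-direction genes, 7 as reported, were 11 with DESeq2 and with no filter on low counts, 4 with upper-quartile factors, a robust fit, the 18 mice alone, thinning or the 0.1 mg/kg baseline, 3 with DESeq2 size factors and without the 2 shallowest sires at 5 mg/kg, and 2 at 0.05. Without 1 mouse at a time the counts ranged from 67 to 198 in all, 46 to 163 for sires-only, 11 to 19 for dams-only and 1 to 9 for opposite genes. The total rose to 181 without sire replicate 2 at 5 mg/kg and to 198 without sire replicate 4 at 5 mg/kg (sires-only 145 and 163), sires-only genes fell to 46 without vehicle dam replicate 4, and opposite genes fell to 1 without dam replicate 3 at 5 mg/kg and to 4 without vehicle dam replicate 2, dam replicates 1, 2 or 4 or sire replicates 1, 3 or 4 at 5 mg/kg. The cause of these moves was not tested. The genes at 0 in every treated sire, an alternative chosen after seeing the data, left 79 genes in all and 51 sires-only. The 55 named genes gave 1703 values under the alternatives, of which 1417 kept the call and 286 kept the sign without passing the threshold, and none reversed. Of the 55 genes, 31 were called in every fit without 1 mouse and 8 in every other alternative. Without the 2 shallowest treated sires 34 of the 55 were called, and with limma-voom and a weight per group 18. With the 0.1 mg/kg mice as baseline 32 were called, and with the probes of a gene summed 43. No paired analysis was possible because the replicate numbers were given in accession order and mark no shared animal, litter or day. Depth limits what can be measured of weakly expressed genes in treated sires, where 23 to 40.5% of tested probes had no count in each mouse.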
